A study of Rattus norvegicus with 24 samples.

Results

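Ins1 and Ins2, the genes that encode preproinsulin in the rat, were followed across all 24 RNA-seq libraries of INS1 cells, a rat insulinoma line that makes insulin and is widely used in place of primary beta cells. The genes were taken by their rat Ensembl IDs, ENSRNOG00000012052 for Ins1 and ENSRNOG00000020405 for Ins2, and are 2 of the 26689 IDs in the deposited count table. The cells carry a mouse IRE1α transgene that doxycycline switches on, and each of the 8 groups held 3 libraries. At 24 h and at 4 h, PAIR1 cells received doxycycline and PAIR1, KIRA9 cells received doxycycline and KIRA9, induced cells received doxycycline and vehicle, and uninduced cells received vehicle alone. All groups therefore carry the transgene, and uninduced cells lacked doxycycline as well as the induced protein. The labels give no dose for either compound and do not say whether the line is a single clone. For 6 libraries, those of induced cells, a time field in the labels contradicts the title; the sample descriptions and the column names of the count table give the same time as the title, which was followed.

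Insulin is made in beta cells as preproinsulin, which enters the endoplasmic reticulum (ER), folds there and is cut to insulin in secretory granules. Rats and mice carry a pair of non-allelic insulin genes, of which Ins2 keeps the ancestral gene structure and Ins1 arose from it by retroposition. IRE1α senses ER stress and combines kinase and RNase activities in 1 protein. The RNase splices Xbp1 mRNA and, when strongly active, also cuts other mRNAs at the ER, and insulin mRNAs are among those reported to be degraded this way in beta cell lines. PAIR1 is named in the title of the series as a partial antagonist that competes with ATP, and KIRA compounds are known as kinase inhibitors that attenuate the RNase.

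The promoters of both genes are shown because the genes share most of the elements known to drive insulin transcription and differ in a few. Each sequence holds the 250 bases before the RefSeq start of the gene in the GRCr8 assembly, on the strand of the gene, at chr1:261185869-261186118 (plus strand) for Ins1 and at chr1:207273806-207274055 (minus strand) for Ins2. The capitals mark matches to GCCATCTG, the E-element that binds NeuroD1 with its partner, to TAATTA and CTTAATGG in the A-elements that bind Pdx1, to GCTTCAGC in the C1-element that binds MafA, to TGACG, the core of the cAMP response element, and to TATAAA, the TATA box.
Ins1: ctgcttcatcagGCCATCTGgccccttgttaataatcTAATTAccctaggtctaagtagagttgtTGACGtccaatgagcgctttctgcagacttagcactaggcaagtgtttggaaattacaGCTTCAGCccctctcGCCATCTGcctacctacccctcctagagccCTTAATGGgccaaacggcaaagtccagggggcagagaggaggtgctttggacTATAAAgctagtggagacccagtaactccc
Ins2: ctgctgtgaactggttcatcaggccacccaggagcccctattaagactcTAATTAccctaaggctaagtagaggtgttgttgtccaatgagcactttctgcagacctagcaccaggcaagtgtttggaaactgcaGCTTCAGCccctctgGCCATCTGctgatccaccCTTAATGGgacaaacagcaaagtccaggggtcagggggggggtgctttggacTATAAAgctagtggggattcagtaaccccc
In a global alignment 209 of 237 aligned bases were identical (88.2%), with 26 further columns gapped. Ins1 held 2 copies of GCCATCTG, which start 238 and 112 bases before the gene, and Ins2 held 1, which starts 100 bases before it. TGACG was found in Ins1 only, 185 bases before the start. TAATTA, CTTAATGG, GCTTCAGC and TATAAA were found once in each, the last at 30 bases before the start in both.

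Both strands were searched, and no marked match overlapped another. Among 33469 rat promoter windows of the same length, 0.998% held GCCATCTG, 4.86% held TAATTA, 0.4004% held CTTAATGG, 1.31% held GCTTCAGC, 18.2% held TGACG and 12.9% held TATAAA. Neither gene held TGACGTGG, the letters searched for the unfolded protein response element that spliced XBP1 binds, which 0.520% of windows held. The ER stress response element, searched as CCAAT and CCACG with 9 bases between them, was also not found in either window and was present in 0.0657% of all. These letters describe the windows only.

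Library totals ran from 12.6 to 23.8 M counts. Both genes were far above any detection limit, with 91374 to 497825 counts for Ins1 and 12611 to 36993 for Ins2. With every read taken as independent, counting error reached 0.331% of the Ins1 count and 0.890% of the Ins2 count. PCR copies are counted as separate reads, so the true counting error can be larger. The coefficient of variation between replicates was 1.27 to 16.7% for Ins1 and 0.187 to 21.1% for Ins2 over the 8 groups. It exceeded the computed counting error except for Ins2 in KIRA9 cells at 4 h. A block of 22 other IDs set 6 libraries apart from the other 18, taking 0.497 to 0.567% of their counts against 0.0164 to 0.0245%. The 22 were chosen because their widest gap, of at least 2 on the log2 scale, split the libraries this way. The gap in their share therefore follows from the choice. The 6 were PAIR1 24 h replicate 1, induced 24 h replicates 1 and 2, uninduced 24 h replicate 2, induced 4 h replicate 3 and uninduced 4 h replicate 2.

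Insulin transcripts were among the most abundant of the cells in every group. Ins1 had the highest count of all 26689 IDs in all 12 libraries at 4 h and in uninduced 24 h replicates 2 and 3. It stood at rank 2 in the PAIR1 and KIRA9 libraries at 24 h and in uninduced 24 h replicate 1, and at rank 3 or 4 in the induced libraries at 24 h. Ins2 stood at ranks 85 to 99 in the induced libraries at 24 h and at ranks 25 to 41 in the other 21 libraries. Insulin, the defining product of the labelled line, was thus present in every library. Other beta cell genes, and markers of other islet, exocrine or stromal cells, were not analysed here, because no table used here pairs the IDs with symbols.

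Induction of IRE1α was followed by a fall of both insulin genes at 24 h. Ins1 stood at 6067, 6097 and 6483 CPM (the count relative to the library total, scaled by TMM) in the induced libraries, against 14598, 18767 and 20399 CPM in the uninduced libraries. Ins2 stood at 852, 841 and 888 CPM in the induced libraries, against 1333, 1898 and 2032 CPM in the uninduced libraries. Every induced library lay below every uninduced one for both genes, and uninduced replicate 1 was the lowest of its group for both. How many of all IDs separate the groups in this way was not counted, so the separation is not shown to be particular to insulin. Ins1 fell by 1.53 ± 0.08 (SE) on the log2 scale, to a level 2.88-fold lower (edgeR quasi-likelihood, adjusted p = 8.8e-14). The p is adjusted by Benjamini-Hochberg over all IDs tested, and a change is named called where it is below 0.05. Ins2 fell by 1.03 ± 0.09, to a level 2.04-fold lower (adjusted p = 1.6e-09). These SEs borrow the spread of the other groups. With only the compared groups fitted by the same test, the change was -1.51 ± 0.10 in Ins1 (adjusted p = 2.0e-06). In Ins2 it was -1.01 ± 0.13 (adjusted p = 0.00013). Both of the 2 genes were thus called lower, while 32.0% of the 13760 IDs tested were called lower and 61.8% were called in either direction.

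The levels are shares of the RNA in a library, so fewer insulin-producing cells and less insulin RNA per cell cannot be told apart. With so many IDs called, the balance of rises and falls depends on the scaling: with library totals alone the median change of all IDs was 0.13 higher on the log2 scale, and the share of called IDs that were higher was 61.3%, against 48.2% with TMM. At 24 h insulin took 0.765 ± 0.027% of all counts in induced libraries and 1.94 ± 0.32% in uninduced libraries (Ins1 and Ins2 summed, SD, n = 3 each). Such a share is scaling by library totals alone, so it carries the shift just described. Without the 6 libraries set apart, which left 1 induced library at 24 h whose spread is assumed to be that of the other groups, Ins1 fell by 1.42 (adjusted p = 1.6e-07) and Ins2 by 0.91 (adjusted p = 8.7e-05). With induced libraries placed by the contradicting time field, the fall stands at 4 h instead, at -1.80 in Ins1 and -0.95 in Ins2.

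**Figure D1:**
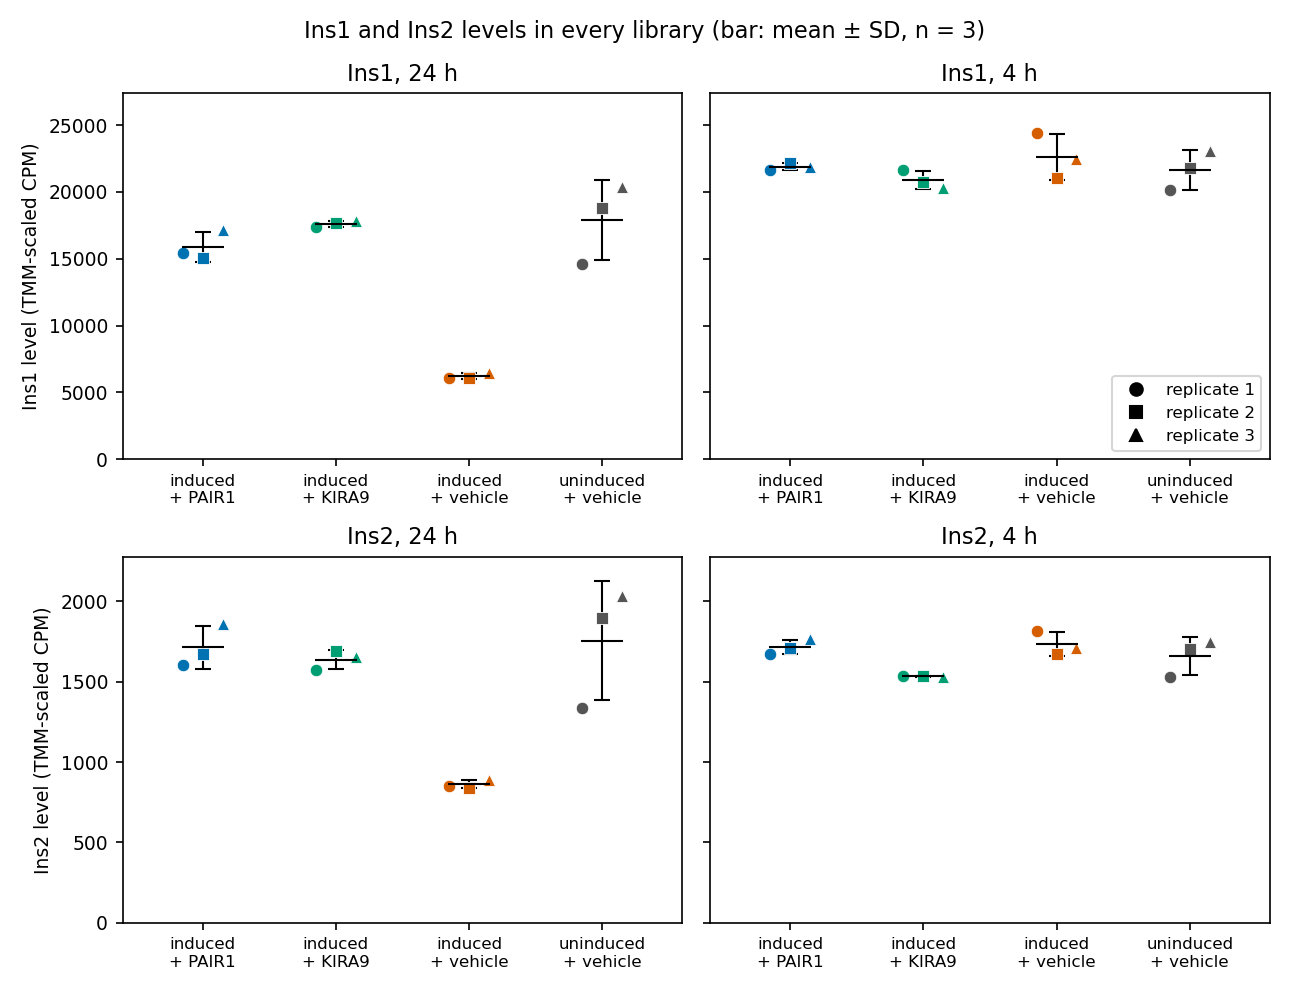
Level of Ins1 (top) and Ins2 (bottom) in TMM-scaled CPM in each library, at 24 h on the left and 4 h on the right; points are libraries, marked by replicate number, and bars are the mean ± SD of 3 libraries. At 24 h the induced libraries with vehicle, at 6067 to 6483 CPM for Ins1 and 841 to 888 CPM for Ins2, lie below all others, while at 4 h the 4 treatments lie close together.

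At 4 h, by contrast, no difference between treatments was called for either gene. Ins1 stood at 24435, 21025 and 22467 CPM in induced libraries, against 20122, 21774 and 23067 CPM in uninduced libraries, and the groups overlapped. Ins2 stood at 1816, 1672 and 1709.5 CPM in induced libraries, against 1529.5, 1702 and 1748 CPM in uninduced libraries, and again the groups overlapped. The change with induction was 0.06 ± 0.08 for Ins1 (95% confidence interval -0.10 to 0.23, adjusted p = 0.96) and 0.06 ± 0.09 for Ins2 (interval -0.13 to 0.25, adjusted p = 0.98). Of all IDs, 0.298% were called for induction at 4 h.

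The compound groups at 4 h lay in the same range. Ins1 stood at 21639, 22190.1 and 21849 CPM in PAIR1 libraries and at 21655, 20782 and 20304 CPM in KIRA9 libraries. Ins2 stood at 1674, 1711 and 1765 CPM in PAIR1 libraries and at 1535, 1535 and 1529.6 CPM in KIRA9 libraries. The log2 differences of Ins1 between treatments at 4 h lay between -0.11 (KIRA9 minus induced, interval -0.28 to 0.05, adjusted p = 0.42) and 0.07 (PAIR1 minus KIRA9, interval -0.10 to 0.23, adjusted p = 0.82). The KIRA9 libraries were lower in Ins2 than every PAIR1 and every induced library, and they overlapped with uninduced replicate 1. The share of all IDs separated in this way was not counted. Against induced cells Ins2 differed by -0.18 ± 0.09 with KIRA9 (interval -0.37 to 0.01, adjusted p = 0.25), which was called, in the same direction, when the 6 compared libraries were fitted alone (adjusted p = 0.0022). Against KIRA9, PAIR1 differed in Ins2 by 0.16 ± 0.09 (interval -0.03 to 0.35, adjusted p = 0.51), which was likewise called in such a fit (adjusted p = 0.0029). Both calls rest on the KIRA9 libraries at 4 h, whose coefficient of variation in Ins2 was 0.187%. It lay below their computed counting error of 0.625 to 0.666%, so the SEs of these fits can be too small. Set against induced cells, 3.20% of all IDs were called with PAIR1 and 11.7% with KIRA9 at 4 h. Set against uninduced cells, PAIR1 had 2.55% of IDs called and KIRA9 had 10.9%, and 2.06% were called between the compounds.

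At 24 h both compounds left insulin RNA well above the level of induced cells given vehicle. Ins1 stood at 15411, 15069 and 17188 CPM with PAIR1 and at 17376, 17642 and 17838 CPM with KIRA9, against 6067 to 6483 CPM in induced libraries. Ins2 stood at 1603, 1675 and 1861 CPM with PAIR1 and at 1572, 1688 and 1653 CPM with KIRA9, against 841 to 888 CPM in induced libraries. No library with a compound overlapped with an induced one in either gene, and the share of all IDs without such overlap was not counted. Ins1 rose by 1.35 ± 0.08 with PAIR1 (2.56-fold, adjusted p = 1.3e-12) and by 1.503 ± 0.08 with KIRA9 (2.83-fold, adjusted p = 1.2e-13). Ins2 rose by 0.99 ± 0.09 with PAIR1 (1.99-fold, adjusted p = 4.1e-09) and by 0.93 ± 0.09 with KIRA9 (1.90-fold, adjusted p = 8.6e-09). Among all IDs 30.0% were called higher with PAIR1 and 32.3% with KIRA9, out of 54.9% and 62.9% called in either direction. These comparisons use the same 3 induced libraries. Without the libraries set apart the changes were 1.31 and 1.43 in Ins1 and 0.98 and 0.87 in Ins2, for PAIR1 and KIRA9 in that order, and all 4 were called. Uninduced cells were given no compound, so an effect that does not pass through induced IRE1α is not separated.

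**Figure D2:**
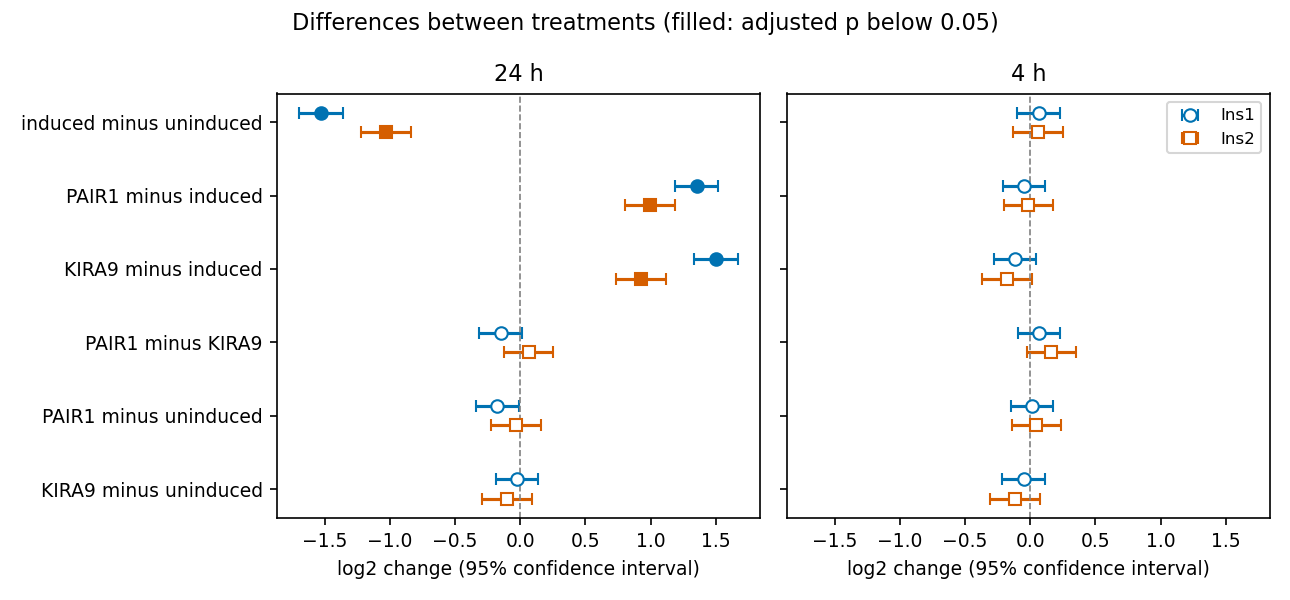
Log2 change of Ins1 (circles) and Ins2 (squares) in each comparison of treatments, with 95% confidence intervals, at 24 h on the left and 4 h on the right; filled symbols have an adjusted p below 0.05 in edgeR's quasi-likelihood test. At 24 h induction gives -1.53 for Ins1 and -1.03 for Ins2, and both compounds give changes of 0.93 to 1.503 against induced cells, whereas no symbol is filled at 4 h.

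Set against uninduced cells at 24 h, neither gene was called with either compound. Ins1 differed by -0.17 ± 0.08 with PAIR1 (interval -0.34 to -0.01, adjusted p = 0.11) and by -0.02 ± 0.08 with KIRA9 (interval -0.19 to 0.14, adjusted p = 0.87). Ins2 differed by -0.03 ± 0.09 with PAIR1 (interval -0.23 to 0.16, adjusted p = 0.83) and by -0.10 ± 0.09 with KIRA9 (interval -0.29 to 0.09, adjusted p = 0.49). Of all IDs, 28.0% were called with PAIR1 and 23.4% with KIRA9 in these comparisons. Expressed as the part of the induction change that was left, with uninduced cells at 0% and induced cells at 100% on the log2 scale, Ins1 stood at 10.7 ± 6.7% with PAIR1 and 0.690 ± 1.25% with KIRA9, and Ins2 at 1.38 ± 11.0% with PAIR1 and 7.64 ± 5.27% with KIRA9 (SD, n = 3 each). These SDs cover the compound libraries only, and the shares move with the uninduced libraries. With each uninduced 24 h library left out in turn, the share in Ins1 ran from 4.34 to 18.3% with PAIR1 and from -6.37 to 9.14% with KIRA9, and in Ins2 from -11.7 to 16.8% with PAIR1 and from -4.61 to 22.1% with KIRA9. The lowest share came without replicate 3 and the highest without replicate 1 in each case.

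These comparisons rest on the uninduced libraries at 24 h, which spread more than any other group. Their coefficient of variation was 16.7% in Ins1 and 21.1% in Ins2. The SEs above come from 1 spread per gene shared by all groups, so they are not each contrast's own precision. With the compared groups fitted alone, the SE of Ins2 against uninduced cells at 24 h was 0.13 with either compound. In such fits at 4 h it was 0.023 for PAIR1 minus KIRA9 and 0.026 for KIRA9 minus induced. Uninduced 24 h replicate 1, the deepest library, was low in both genes. Without it the log2 change of Ins1 with PAIR1 was -0.30 and was called (adjusted p = 0.00030). The changes of Ins2, -0.20 with PAIR1 (adjusted p = 0.0077) and -0.26 with KIRA9 (adjusted p = 0.00090), were then called too. Without PAIR1 24 h replicate 3, the change of Ins1 with PAIR1 was -0.23 and was also called (adjusted p = 0.049).

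In the direct comparison at 24 h the compounds were not told apart in either gene. The difference, PAIR1 minus KIRA9, was -0.15 ± 0.08 in Ins1 (interval -0.31 to 0.01, adjusted p = 0.22) and 0.07 ± 0.09 in Ins2 (interval -0.13 to 0.26, adjusted p = 0.71). All 3 PAIR1 libraries lay below all 3 KIRA9 libraries in Ins1, and the groups overlapped in Ins2. The share of all IDs that separate the compounds in this way was not counted, so this order does not set Ins1 apart from other IDs. Fitted without the other groups, the Ins1 difference was called (adjusted p = 0.026). Of all IDs 16.3% were called between the compounds at 24 h. Since no doses are given, the values compare the treatments as applied.

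The changes of both genes at 24 h lay toward the ends of the distribution over all IDs without being extreme. With induction, 3.83% of the 13760 IDs had a lower log2 change than Ins1 and 9.23% a lower one than Ins2. With PAIR1 against induced cells 1.88% of IDs had a higher log2 change than Ins1 and 5.57% a higher one than Ins2. With KIRA9 against induced cells the shares were 3.63% above Ins1 and 11.0% above Ins2.

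**Figure D3:**
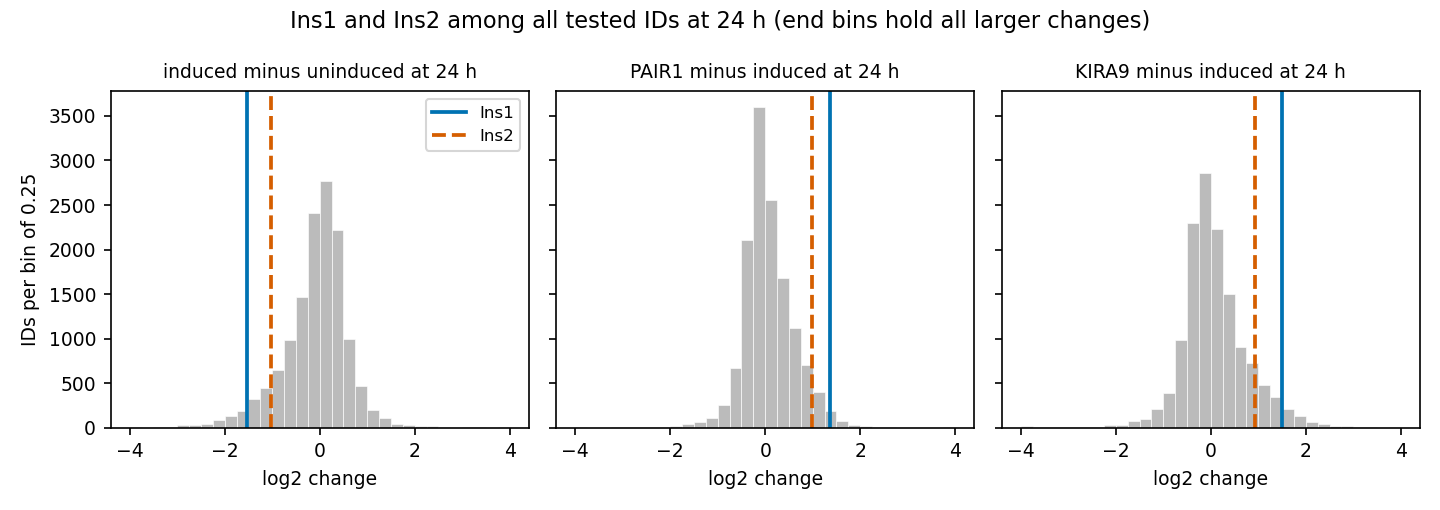
Number of IDs per bin of 0.25 in log2 change for 3 comparisons at 24 h, with Ins1 as the solid and Ins2 as the dashed line; the end bins hold all larger changes. Ins1 lies further from 0 than Ins2 in each panel, at -1.53 against -1.03 with induction, 1.35 against 0.99 with PAIR1 and 1.503 against 0.93 with KIRA9.

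The genes differed in their change between the times. The titles give only the hour, so time in culture and length of treatment cannot be told apart. Between 24 h and 4 h Ins1 fell in every treatment, by 0.46 ± 0.08 with PAIR1 (adjusted p = 6.9e-05), by 0.25 ± 0.08 with KIRA9 (adjusted p = 0.020), by 1.87 ± 0.08 in induced cells (adjusted p = 2.9e-15) and by 0.27 ± 0.08 in uninduced cells (adjusted p = 0.012). Ins2 fell in induced cells only by the test, by 1.01 ± 0.09 (adjusted p = 2.2e-09). Its changes were -0.00 ± 0.09 with PAIR1 (interval -0.19 to 0.19), 0.10 ± 0.09 with KIRA9 (interval -0.10 to 0.29) and 0.08 ± 0.09 in uninduced cells (interval -0.11 to 0.27). Of all IDs 34.3% were called between the times with PAIR1, 29.6% with KIRA9, 62.4% in induced and 27.2% in uninduced cells.

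The smaller changes with time depended on single libraries. The fall of Ins1 in uninduced cells was not called without uninduced 24 h replicate 1 (log2 change -0.14, adjusted p = 0.067), without uninduced 4 h replicate 3 (-0.23, adjusted p = 0.067), without the libraries set apart (-0.31, adjusted p = 0.059) or with the 6 uninduced libraries fitted alone (-0.27, adjusted p = 0.11). Same-numbered uninduced libraries deviated together, with every r over 0.1, in the only 1 of 28 pairs of groups to do so. That same fit with a replicate block called the change (-0.28, adjusted p = 0.0078), with Ins1 lower at 24 h in every same-numbered pair. The block was picked from these data after they had been seen, so its call is no independent support. In KIRA9 cells the fall of Ins1 was not called without KIRA9 24 h replicate 1 (-0.24, adjusted p = 0.060), KIRA9 24 h replicate 2 (-0.25, adjusted p = 0.050) or KIRA9 4 h replicate 1 (-0.22, adjusted p = 0.072). For Ins2 in uninduced cells the change was called without uninduced 24 h replicate 1 (0.24, adjusted p = 0.0017), and in KIRA9 cells it was called with the 6 KIRA9 libraries fitted alone (0.09, adjusted p = 0.021). That fit includes the KIRA9 libraries at 4 h, whose spread in Ins2 lay below the computed counting error.

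The effects of treatment themselves differed between the times in both genes. The interaction of time with induction, with PAIR1 on induced cells and with KIRA9 on induced cells was called for Ins1 and for Ins2 alike, where 50.3%, 41.9% and 49.7% of all IDs were called in that order. The interaction of time with the difference between PAIR1 and KIRA9, for which 8.61% of IDs were called, was called for neither gene, at -0.22 ± 0.11 in Ins1 (interval -0.45 to 0.02, adjusted p = 0.29) and -0.10 ± 0.13 in Ins2 (interval -0.37 to 0.17, adjusted p = 0.76).

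The ratio of Ins1 to Ins2 counts within a library, which no scaling enters, gave the difference between the genes directly. At 24 h there were 9.61, 8.998 and 9.24 Ins1 counts per Ins2 count in PAIR1 libraries, 11.1, 10.5 and 10.8 in KIRA9 libraries, 7.12, 7.25 and 7.30 in induced libraries and 10.9, 9.89 and 10.04 in uninduced libraries. Induced libraries thus had the lowest ratios, PAIR1 libraries lay above them and below all others, and KIRA9 libraries overlapped with uninduced ones. The ratio differed across the 4 treatments at 24 h (exact permutation p = 0.00026 over the 12 libraries). The log2 ratio in induced libraries was lower than in uninduced libraries by a difference of -0.51, so that Ins1 fell further than Ins2. It was higher by 0.36 with PAIR1 and by 0.58 with KIRA9 than in induced libraries.

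PAIR1 libraries differed in the log2 ratio from KIRA9 libraries by -0.21 and from uninduced libraries by -0.15, and neither pair of groups overlapped. KIRA9 libraries differed from uninduced libraries by 0.07, with overlap (exact permutation p = 0.3). For the other 5 pairs at 24 h the exact permutation p was 0.1, the lowest possible with 3 libraries against 3, and 0.17 after Benjamini-Hochberg adjustment over 12 pairs at both times. Without the libraries set apart the p across treatments was 0.0071 at 24 h.

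At 4 h the ratio was 12.9, 12.97 and 12.4 in PAIR1 libraries, 14.1, 13.5 and 13.3 in KIRA9 libraries, 13.5, 12.6 and 13.1 in induced libraries and 13.2, 12.8 and 13.2 in uninduced libraries. The treatments were not told apart (exact permutation p = 0.089), although without induced 4 h replicate 2 the p was 0.034. KIRA9 libraries lay above all PAIR1 and all uninduced libraries. The log2 ratio was lower at 24 h than at 4 h in every treatment without overlap, by 0.50 on average over the 4 treatments (exact permutation p = 1.25e-05 with times exchanged only within a treatment, the smallest possible, a test chosen after the values had been seen).

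The ratio compares counts, not molecules, since the lengths of the counted transcripts are not given. Ins1 and Ins2 are related genes whose transcript sequences were not compared here. How the counting treated reads that match both is not stated, so the split between the genes is uncertain. Whether a change in such reads moved with the ratio was not tested.

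**Figure D4:**
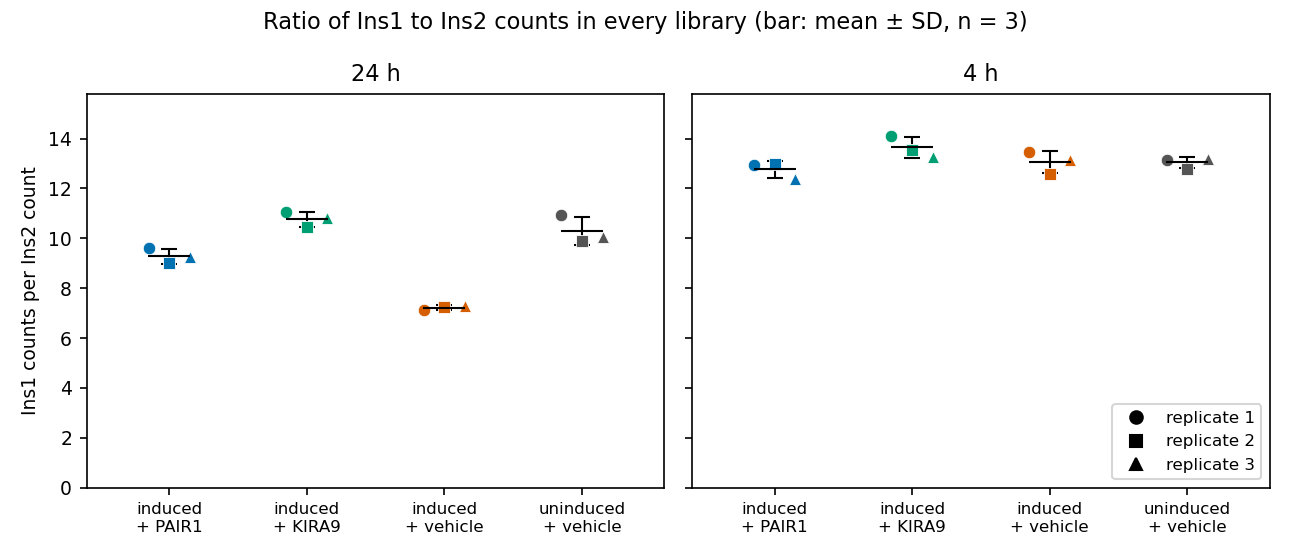
Ins1 counts per Ins2 count in each library, at 24 h on the left and 4 h on the right; points are libraries, marked by replicate number, and bars are the mean ± SD of 3 libraries. At 24 h induced libraries sit at 7.12 to 7.30 and PAIR1 libraries at 8.998 to 9.61, below KIRA9 and uninduced libraries.

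Over the 8 groups, the means of Ins1 ran in ascending order through induced 24 h, PAIR1 24 h, KIRA9 24 h, uninduced 24 h, KIRA9 4 h, uninduced 4 h, PAIR1 4 h and induced 4 h. Only the steps from induced 24 h to PAIR1 24 h and on to KIRA9 24 h were free of overlap between neighbours. The order of Ins2 was induced 24 h, KIRA9 4 h, KIRA9 24 h, uninduced 4 h, PAIR1 24 h, PAIR1 4 h, induced 4 h and uninduced 24 h, with overlap between all neighbours from KIRA9 24 h upward. Overlap between groups was not examined in other IDs.

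Neither insulin gene was among the 3 IDs most like the other. Over the 24 libraries, the 3 IDs most like Ins1 among 10709 others had a Pearson r of 0.983 to 0.986 in log2 CPM with it, and the 3 most like Ins2 had 0.966 to 0.974. Ins1 and Ins2 correlated with r = 0.92, which placed Ins2 at position 796 in the list for Ins1 and Ins1 at position 132 in the list for Ins2. The low induced libraries at 24 h weigh heavily in these values. Without them r between the genes was 0.34 over 21 libraries, against 0.849 to 0.878 for the 3 IDs most like Ins1 and 0.707 to 0.811 for those most like Ins2. Those IDs were picked for the highest r in libraries that include these 21. Their values are therefore high by selection and are no test against the r between the genes. The ID most like Ins1, ENSRNOG00000014454, averaged 55.8 CPM in induced cells and 105 CPM in uninduced cells at 24 h, and the ID most like Ins2, ENSRNOG00000029500, averaged 145 CPM in induced cells and 317 CPM in uninduced cells. These correlations describe libraries that share groups and depth, and the IDs carry no symbol in the tables used here.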

How the data were processed

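RNA was measured in 24 libraries of 8 groups, taken from the sample titles. The authors deposited raw read counts per Ensembl ID without normalization. Per the labels' protocols, poly(A) RNA was selected from total RNA and libraries were built with NEBNext Ultra II reagents. HISAT2 and HTSeq are named without version in the submitters' processing notes. Genome build, annotation and strand setting are not given in the sources used here.

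The counts entered edgeR 4.0.16 (R 4.3.3). filterByExpr, with its minimum count at 10, kept 13760 IDs. Libraries were scaled by TMM, and 1 quasi-likelihood model with a mean per group was fitted to all 24. The model shares 1 estimate of the spread per ID over all groups, including groups that spread unequally. Benjamini-Hochberg adjustment ran over all kept IDs in each contrast, and IDs below 0.05 are named called. Adjusted p-values are from this test unless another fit is named, and intervals use its standard error. The labels do not say that replicates were separate cultures, so p-values measure the spread between these libraries, which may be technical. Replicates always differed beyond sampling noise (chi-square per degree of freedom 3.63 to 19.5). Count ratios were tested by two-sided exact permutation.

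Same-numbered libraries deviated together, with every r over 0.1, in 1 of 28 pairs of groups, uninduced cells at 24 h and 4 h; the model has no block. The genes, lists and tests were chosen with earlier results of these data known. The rule for other IDs took the 3 most correlated with each gene among those with a mean of at least 5 CPM. The planned lists of beta cell genes and of markers of other cells could not be read, since 0 IDs matched the reference table. Promoters are from RefSeq (GRCr8), which held both genes, and were aligned with Biopython 1.88. The fits and permutations were tested on simulated data. Alternatives were other scalings, no filter, DESeq2 1.42.0, fits to the compared groups, a replicate block, 10 added to both counts of the ratio, the contradicting time labels and single libraries left out. Added after seeing the data were a fit without the libraries set apart and, for uninduced cells, the block within the compared groups.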

Additional observations from a re-analysis of the deposited data

Results flagged for a closer look

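Both genes are listed here because 3 contrasts had unlike effects at the 2 times, by an interaction term in edgeR's quasi-likelihood model. The induction effect was lower at 24 h than at 4 h by a log2 difference of -1.59 ± 0.11 (SE) in Ins1 (adjusted p = 3.3e-11) and -1.09 ± 0.13 in Ins2 (adjusted p = 2.5e-07), where 50.3% of all IDs were called. The effect of PAIR1 on induced cells was higher at 24 h by 1.40 ± 0.11 in Ins1 (adjusted p = 5.5e-10) and 1.01 ± 0.13 in Ins2 (adjusted p = 1.2e-06), where 41.9% of IDs were called. The effect of KIRA9 on induced cells was higher at 24 h by 1.62 ± 0.11 in Ins1 (adjusted p = 2.7e-11) and 1.10 ± 0.13 in Ins2 (adjusted p = 2.1e-07), where 49.7% were called. All 3 contrasts share the induced libraries.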

How the results depend on the processing

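With DESeq2, median-of-ratios scaling, no filter or the replicate block, every change of Ins1 and Ins2 kept its direction and its side of the threshold; the block gave Ins1 in uninduced cells, 24 h minus 4 h, as -0.28 (adjusted p = 0.0088), and -0.28 (adjusted p = 0.0078) within the compared groups. The block left the ratio test at 24 h at p = 0.0017 and at 4 h at p = 0.083 by exact permutation. Library totals turned only Ins2 with PAIR1, 24 h minus 4 h, to 0.023, not called. Fits to the compared groups alone called Ins1 in PAIR1 minus KIRA9 at 24 h (-0.15) and its change with time (-0.21), and Ins2 in KIRA9 24 h minus 4 h (0.095), KIRA9 minus induced at 4 h (-0.17) and PAIR1 minus KIRA9 at 4 h (0.16), and did not call Ins1 in uninduced cells with time (-0.27). Without the libraries set apart that last change was -0.31 and not called, and uncalled values turned sign for Ins1 in KIRA9 minus uninduced at 24 h (0.014), Ins2 in PAIR1 24 h minus 4 h (0.042), Ins2 in PAIR1 minus uninduced at 24 h (0.076) and the log2 ratio of induced minus uninduced at 4 h (-0.019). The cause was not tested.

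The contradicting time field exchanges the induced libraries of 24 h and 4 h, and of 29 values recomputed 24 turned sign, 2 fell short of the threshold they had passed, 1 newly passed it and 2 kept direction and side. At 24 h Ins1 was then 0.34 for induced minus uninduced, -0.51 for PAIR1 minus induced and -0.36 for KIRA9 minus induced, and Ins2 was -0.018, -0.016 and -0.081 in the same order. At 4 h Ins1 was -1.80, 1.82 and 1.75, and Ins2 was -0.95, 0.996 and 0.83. The 24 h minus 4 h differences of these contrasts were 2.14, -2.33 and -2.11 for Ins1 and 0.93, -1.01 and -0.91 for Ins2, and induced cells alone changed by 1.87 and 1.01. The log2 ratio became 0.34, -0.49 and -0.28 at 24 h, and -0.85 for induced minus uninduced and 0.82 for PAIR1 minus induced at 4 h, where the exact permutation p across treatments was 0.00039. The mean time difference of the ratio became -0.073 (exact permutation p = 0.57).

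With single libraries left out, Ins1 ranged from -0.27 to -0.22 for KIRA9 24 h minus 4 h, -0.15 to 0.076 for KIRA9 minus uninduced at 24 h, -0.10 to 0.0091 for PAIR1 minus induced at 4 h, -0.30 to -0.072 and -0.034 to 0.064 for PAIR1 minus uninduced at 24 h and 4 h, and -0.37 to -0.14 for uninduced 24 h minus 4 h. Ins2 ranged from -0.26 to 0.017 for KIRA9 minus uninduced at 24 h, -0.062 to 0.042 for PAIR1 24 h minus 4 h, -0.038 to 0.021 for PAIR1 minus induced at 4 h, -0.20 to 0.083 and -0.0072 to 0.087 for PAIR1 minus uninduced at 24 h and 4 h, and -0.035 to 0.24 for uninduced 24 h minus 4 h. The ratio at 4 h gave an exact permutation p across treatments of 0.034 to 0.29 and a log2 difference of -0.021 to 0.028 for induced minus uninduced.

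Counts of called IDs moved by over 1.5 times in some settings. For induction at 4 h, 41 IDs were called, against 27 in the compared groups, 70 by DESeq2 and 8700 with the time field, which gave 3787 in place of 8503 at 24 h. With the time field PAIR1 minus induced had 4646 in place of 7556 at 24 h and 8733 in place of 440 at 4 h, and KIRA9 minus induced had 4218 in place of 8660 and 8939 in place of 1606. PAIR1 minus induced at 4 h had 280 in the compared groups, 246 without the libraries set apart and 244 to 303 with single libraries left out. PAIR1 minus uninduced at 4 h had 351, against 198, 161 and 196 to 231 in those settings. PAIR1 minus KIRA9 at 4 h had 283, against 187 without PAIR1 4 h replicate 1. Without the libraries set apart KIRA9 had 966 against induced and 944, in place of 1505, against uninduced cells at 4 h, and uninduced cells with time had 2187, or 2219 in the compared groups, in place of 3739. KIRA9 minus uninduced at 24 h had 2070 in the compared groups in place of 3221.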
